A study of Mus musculus with 4 samples.

Results

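CD4 T cells, the helper and regulatory arm of the T cell compartment, made up 441 of the 53866 kept barcodes of 4 mouse aorta libraries. They were selected on their own RNA counts, so the genes of the selection are a description here and support nothing. A kept barcode held at least 500 unique molecular identifiers (UMIs, 1 per captured RNA molecule) with at most 10% of them mitochondrial. A member had at least 2 UMIs summed over Cd3d, Cd3e, Cd3g, Trac and Trbc2, at least 1 UMI of Cd4 and none of Cd8a or Cd8b1. It also had no UMI of the thymocyte genes Rag1, Dntt and Ptcra or of the B cell genes Cd79a and Ms4a1. At most 2 UMIs of the killer cell genes Nkg7, Klre1, Ncr1 and Gzma, and at most 2 of the macrophage complement genes C1qa, C1qb and C1qc, were allowed.

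CD4 T cells recognise peptides on MHC class II through the T cell receptor and its CD3 subunits. Naive cells recirculate through lymphoid organs with the homing receptor CCR7, and many but not all antigen-experienced cells lose it and enter tissue. Regulatory T cells carry the transcription factor FOXP3 and restrain the other T cells, and in the artery wall CD4 T cells are known to sit mainly in the adventitia and in plaques.

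The study compared aortas of WT and LysM-DKO mice on normal diet, and of WT/ApoE-/- and LysM-DKO/ApoE-/- mice on western diet, with 1 library for each of these 4 groups. The series title concerns epsins, endocytic adaptor proteins, and cholesterol efflux by ABCG1. What LysM-DKO deletes is not spelled out in the labels, which give neither the ages nor the number of animals pooled in a library. Aortas were digested with 2 collagenases and liberase for 90 min, and the cells were loaded on 10x Genomics 3' chips. Values below follow the order WT normal diet, LysM-DKO normal diet, WT/ApoE-/- western diet, LysM-DKO/ApoE-/- western diet.

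With 1 library per group there is no test between groups. Brackets hold 95% intervals that cover counting error only, and not the spread between cells, animals or preparations. Those of levels and ratios treat each UMI as an independent draw, so they are too narrow where few cells hold most UMIs of a gene. The diet comparison is also a comparison of ApoE genotypes and of Cell Ranger versions, and the cells differ in sex, with 724, 1261, 0 and 0 UMIs of Xist in the members. These cannot be told apart. Apoe gave 24, 167, 1 and 0 UMIs in the members, and 556, 956, 4.36 and 1.91 CPM (UMI counts per 1e6 UMIs of the same cells) in all other kept barcodes, so the libraries labelled ApoE-/- were near 0 for it.

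The members numbered 127, 224, 82 and 8. Their median depth was 3761, 3582, 2254.5 and 2458 UMIs, with a median of 1634, 1581, 1102.5 and 1177.5 genes. Summed, they held 548820, 946607, 239715 and 29705 UMIs, and a gene with 0 UMIs may still reach 5.47, 3.17, 12.5 and 101 CPM (3 counts of the total). The 8 cells of the fourth library therefore allow statements on few genes. No member barcode was shared between libraries, while 15 to 77 kept barcodes were shared by any pair.

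Most members were well inside the T cell threshold and near the Cd4 threshold. The median member held 6, 7, 5 and 4 UMIs of the T cell genes, and 20, 26, 11 and 1 members held exactly 2. Just outside, 19, 20, 9 and 0 barcodes met every other condition with only 1 such UMI. A single Cd4 UMI carried the membership of 83, 116, 54 and 6 cells. Of all B cells, chosen by Cd79a and Ms4a1 with no T cell gene, 0.272, 0.592, 0.189 and 0% had a Cd4 UMI, with median depths of 2919, 3449.5, 1864.5 and 2195 UMIs. Of the smooth muscle barcodes 2.65, 2.57, 0.389 and 0.670% had one, with median depths of 8007.5, 7816.5, 1289 and 7042.5 UMIs. A further 538, 424, 389 and 25 T cells showed neither Cd4 nor Cd8 and may include CD4 T cells whose Cd4 was not captured.

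Genes that the selection did not use matched the T cell part of the name. The B cells set beside the members were chosen with no UMI of the T cell genes of the rule, which favours low values there. Trbc1, the other constant segment of the T cell receptor beta chain, stood at 312, 378, 380 and 202 CPM in the members and at 3.93, 6.12, 0.788 and 0 CPM in B cells. Icos, a costimulatory receptor of activated T cells, stood at 295, 509, 375 and 168 CPM and at 0, 1.69, 0 and 0 CPM in B cells. Markers of gamma-delta T cells were nearly absent, with 2, 2, 1 and 0 UMIs of Trdc. Trdc stood at 15.4, 69.6, 422 and 549 CPM in the T cells with neither coreceptor.

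RNA of other cell types was found in most members. Acta2, the smooth muscle actin, was seen in 127 of 127, 223 of 224, 76 of 82 and 8 of 8 members, and the summed 6-gene smooth muscle list stood at 25.1, 32.0, 33.6 and 46.0% of its level in the other barcodes. The macrophage list (8 genes) gave 9, 31, 11 and 0 UMIs, with Lyz2 at 0, 5, 3 and 0 and Adgre1 at 0 in both normal diet libraries. The B cell list (7 genes, with Cd22 at 0 in all 4 libraries) stood at 277, 684, 104 and 135 CPM and hemoglobin with Alas2 at 1290, 3157, 250 and 0 CPM. The dendritic list (7 genes) stood at 270, 532, 334 and 3165 CPM, with Flt3, Cd209a and Itgax at 0 throughout, and 72 of the 94 Cst3 UMIs of the fourth library came from 1 cell. The NK and innate lymphoid cell list (6 genes, among them Il1rl1 and Eomes) stood above the other barcodes in the first 3 libraries. Its level was 240, 221, 634 and 0% of theirs, with Klrb1c at 0 in all 4 libraries. The endothelial list (5 genes) stood at 50.8, 48.3, 143 and 0% of its level in the other barcodes.

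On normal diet, CD4 T cells were 1.41% (1.17 to 1.67) of the kept barcodes of WT, and those of LysM-DKO held 2.32% (2.03 to 2.65). On western diet they were 0.314% (0.249 to 0.389) in WT/ApoE-/- and 0.0885% (0.0382 to 0.174) in LysM-DKO/ApoE-/-. LysM-DKO minus WT gave 0.920 points of percent (0.533 to 1.31) under the normal diet, and under the western diet -0.225 (-0.312 to -0.120). Western minus normal diet was -1.09 points (-1.36 to -0.856) in WT. B cells followed a similar order, at 8.14, 10.5, 2.02 and 0.144% of kept barcodes, and all T cells of the rule before the coreceptors stood at 10.0, 7.72, 2.10 and 0.410%. The kept barcodes had median depths of 3408, 2895, 1053 and 6408 UMIs, and the part of depth in these shares was not tested.

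Within the T cells the order of the libraries was another one. CD4 cells were 35.7% (30.7 to 40.9) of CD4 plus CD8 T cells in WT and 70.4% (65.1 to 75.4) in LysM-DKO on normal diet, a difference of 34.8 points (27.5 to 41.5). WT/ApoE-/- on western diet stood between them at 52.2% (44.1 to 60.3). LysM-DKO/ApoE-/- had 8 CD4 and 4 CD8 T cells, or 66.7% (34.9 to 90.1), and its difference from WT/ApoE-/- was 14.4 points (-14.2 to 35.4). The counts behind the normal diet contrast were 127 CD4 and 229 CD8 T cells in WT against 224 and 94 in LysM-DKO, so the CD4 share was higher where CD8 T cells were fewer. T cells with a UMI of Rag1, Dntt or Ptcra, which the rule leaves out, numbered 27, 71, 18 and 4.

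**Figure D1:**
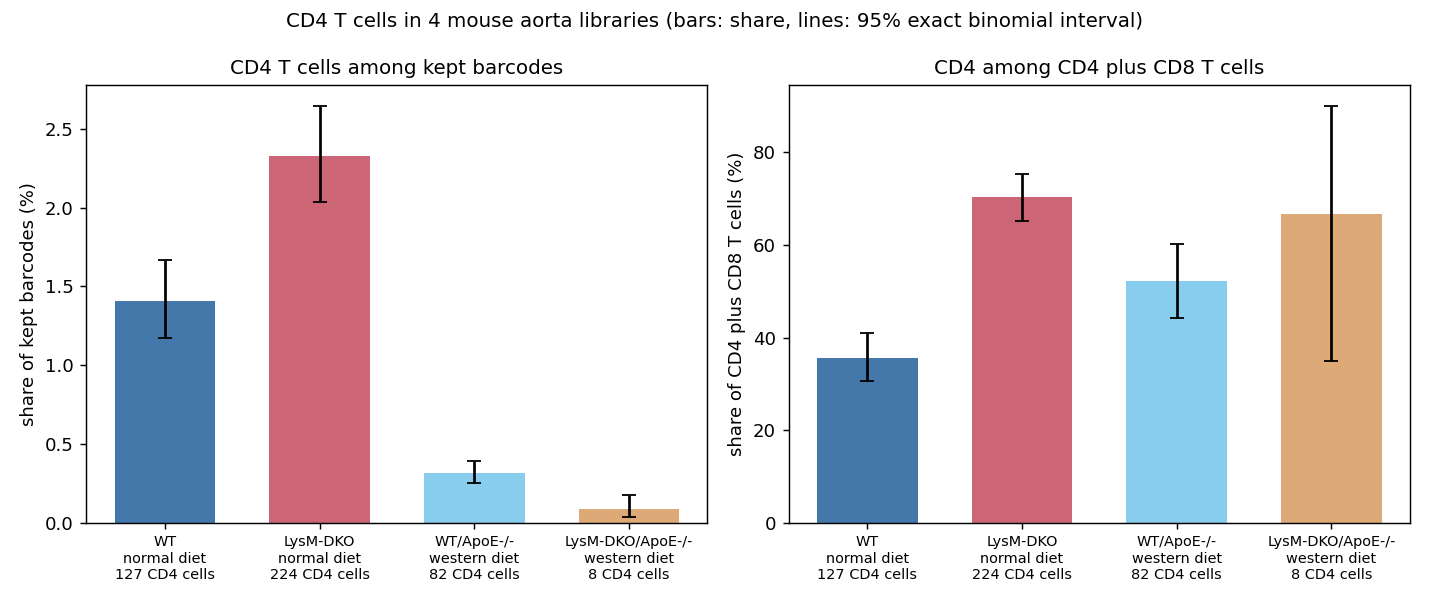
Share of CD4 T cells among kept barcodes (left, %) and among CD4 plus CD8 T cells (right, %) in each of the 4 libraries, with exact binomial 95% intervals for counting error. The left bars stand at 1.41, 2.32, 0.314 and 0.0885%, and the right bars at 35.7, 70.4, 52.2 and 66.7%, the last on 8 CD4 T cells.

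Set against CD8 T cells of the same library, the members held more of 3 genes of the tumor necrosis factor and receptor families. Tnfsf8 (CD30 ligand) gave 258, 443 and 82 UMIs in CD4 T cells and 27, 5 and 2 in CD8 T cells of the first 3 libraries, a log2 ratio of 4.47 (3.92 to 5.13), 5.04 (3.94 to 6.81) and 4.82 (3.24 to 8.21). Tnfrsf4, the costimulatory receptor OX40, was higher by 3.25 (2.46 to 4.21), 5.50 (3.58 to 11.4) and 4.25 (2.64 to 7.64), and Tnfrsf9 (4-1BB) by 2.90 (2.18 to 3.72), 4.06 (2.84 to 6.11) and 2.95 (1.21 to 6.37). All 3 were higher in CD4 T cells in each of these libraries.

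Areg, which encodes the tissue repair factor amphiregulin, gave 89, 64 and 15 UMIs in CD4 and 3, 0 and 0 in CD8 T cells. Il1rl1, the receptor for the alarmin IL-33, gave 33, 43 and 4 UMIs in CD4 T cells and none in CD8 T cells. Few members carried these 2 genes. In WT on normal diet 6 cells held the 33 Il1rl1 UMIs, and 14 cells held the 89 Areg UMIs, with 41 in 1 cell. In LysM-DKO on normal diet the 43 Il1rl1 UMIs lay in 1 cell with and 5 cells without a Ccr9 UMI, and 31 cells held Areg. Sostdc1 (35, 83 and 9 UMIs against 0, 1 and 0), which encodes a secreted BMP and WNT antagonist, the proenkephalin gene Penk (60, 70 and 21 against 12, 2 and 3) and the transcription factor gene Plagl1 (171, 534 and 42 against 25, 23 and 2) were also among the 10 genes with the highest CD4 over CD8 ratios in both normal diet libraries. Itgb8, an integrin that activates TGF-beta, and the Rac exchange factor Tiam1 completed that list, at log2 ratios of 3.40 and 4.19 for Itgb8 and of 3.27 and 3.15 for Tiam1 on normal diet.

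The genes lowest in CD4 against CD8 T cells included cytotoxic and memory CD8 genes. Klrd1, the killer lectin receptor CD94, gave 0, 0 and 1 UMIs in CD4 and 97, 29 and 12 in CD8 T cells. The chemokine Ccl5 was lower by -5.14 (-5.85 to -4.57), -4.00 (-4.22 to -3.79) and -2.25 (-2.54 to -1.98) on the log2 scale. The T-box factor Eomes was lower by -2.39, -3.52 and -1.25, and the protease gene Ctsw by -2.71, -2.76 and -3.85. Ly6c2, a surface protein of memory CD8 T cells, gave 0, 3 and 0 UMIs against 137, 21 and 39. Neto2 and Yes1, lower on normal diet, had western diet ratios of 0.31 (-1.71 to 2.63) and -0.22 (-1.96 to 1.52).

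Regulatory T cells were a small detected part of the members. Foxp3 was seen in 9 of 127, 16 of 224, 3 of 82 and 0 of 8 CD4 T cells, or 7.09% (3.29 to 13.0), 7.14% (4.14 to 11.3), 3.66% (0.761 to 10.3) and 0% (up to 36.9). The share with a Foxp3 UMI was 0.437, 2.13, 0 and 0% in CD8 T cells and 0, 0.0986, 0 and 0% in B cells. The summed Foxp3 level was 27.3 (15.3 to 45.1), 31.7 (21.4 to 45.2) and 20.9 (6.77 to 48.7) CPM in the first 3 libraries, so no difference in Foxp3 was detectable at this depth. With each cell thinned to 500 UMIs the shares were 1.69, 1.30, 0.910 and 0%. A cell without a Foxp3 UMI can still be a regulatory T cell.

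Members with a Foxp3 UMI differed from the other members in genes that the split did not use. Ikzf2, which encodes the regulatory T cell factor Helios, stood at 3151 against 709 CPM in WT, at 3690 against 757 CPM in LysM-DKO on normal diet, and at 1716 against 367 CPM in WT/ApoE-/-. Its log2 ratios of 2.16 (1.82 to 2.48), 2.29 (2.10 to 2.47) and 2.26 (1.41 to 2.97) lay close together, and it was seen in 6 of 9, 16 of 16 and 3 of 3 Foxp3-detected cells. Tnfrsf9 was higher by 2.49 (1.54 to 3.30), 2.74 (2.30 to 3.17) and 2.78 (0.89 to 4.18). Ctla4, the inhibitory receptor, was higher by 2.57 (1.86 to 3.20), 1.09 (0.56 to 1.58) and 2.34 (1.35 to 3.16). All 3 genes were higher in the Foxp3-detected cells of each library that had such cells.

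Other genes of the regulatory program followed on normal diet. Ikzf4 (Eos) was higher by 2.52 (0.98 to 3.75) and 2.94 (1.72 to 4.13), and Lrrc32, which docks latent TGF-beta on the cell surface, by 2.55 (0.64 to 3.99) and 2.63 (1.73 to 3.49). The interferon-induced GTPase gene Gbp2 was higher by 4.11 (3.18 to 5.04) and 2.35 (1.10 to 3.49), and the laminin gene Lamc1 by 2.55 and 2.69, where all 22 Gbp2 UMIs of the Foxp3-detected WT cells came from 1 cell. Il1rl1 was higher by 3.44 (2.29 to 4.50) and 4.06 (3.12 to 5.12), but its UMIs sat in 1 of the 9 and in 3 of the 16 Foxp3-detected cells. Tnfrsf4 was higher by 1.53 (0.99 to 2.03) in LysM-DKO, while in WT its ratio was -0.56 (-3.94 to 1.05). Il2ra, the high-affinity IL-2 receptor chain, gave 0 UMIs in the 9 Foxp3-detected WT cells and 20 in the others.

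Of the naive genes, Lef1 was lower in the Foxp3-detected cells of both normal diet libraries. It differed by -1.26 (-3.03 to -0.15) in the WT and -2.58 (-5.09 to -1.23) in the LysM-DKO library. Ccr7 had ratios of 0.32 (-0.63 to 1.05) and -1.10 (-2.33 to -0.22), and Tcf7 of -0.94 (-3.0 to 0.28) and -0.83 (-1.82 to -0.08), so in WT neither differed beyond counting error. Sostdc1 gave 0 UMIs in the Foxp3-detected cells of either normal diet library and 35 and 83 UMIs in the other members. The median depth of Foxp3-detected against other members was 3882 against 3755.5 UMIs in WT and 4550.5 against 3537 in LysM-DKO.

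**Figure D2:**
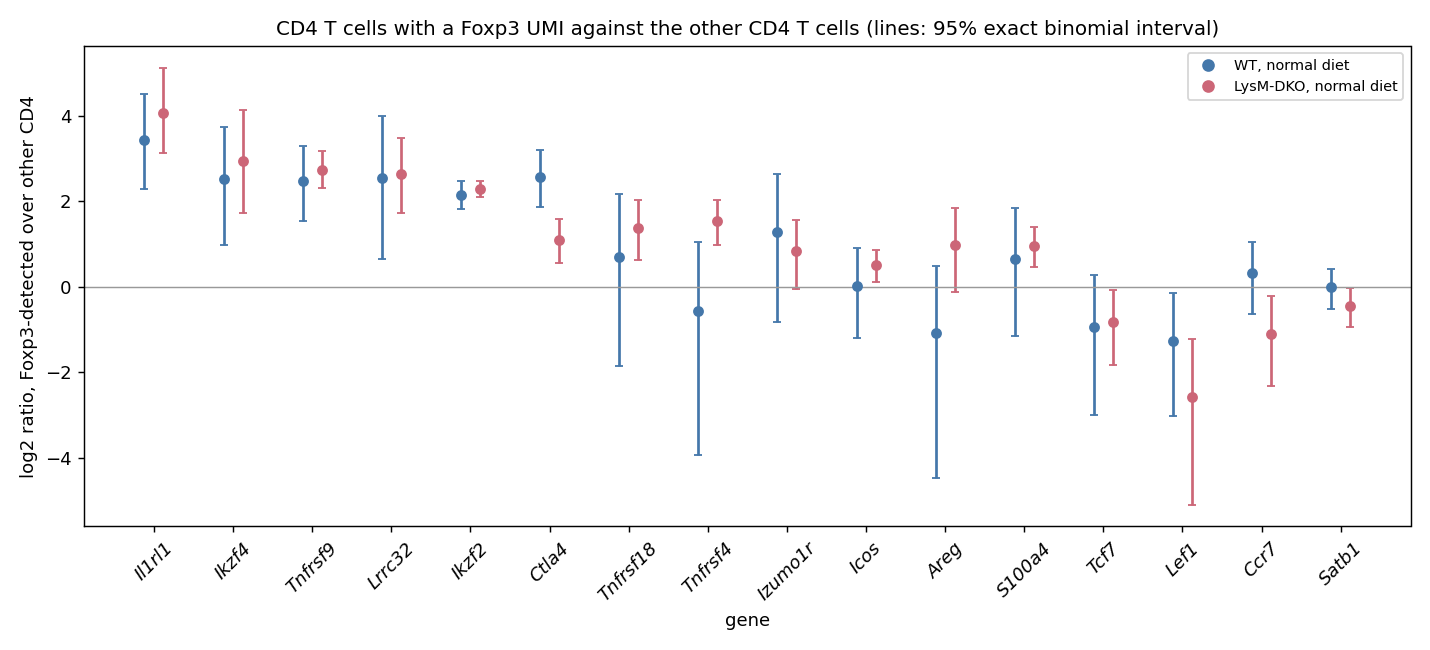
Log2 ratio of the summed level of each gene in Foxp3-detected CD4 T cells over the other CD4 T cells, in the 2 normal diet libraries, with exact binomial 95% intervals. Il1rl1, Ikzf4, Tnfrsf9, Lrrc32, Ikzf2 and Ctla4 lie above 0 with their whole intervals in both libraries, and Lef1 lies below 0 in both.

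The homing receptor Ccr7 divided the members along naive and antigen-experienced genes. A Ccr7 UMI was present in 63 of 127, 73 of 224, 9 of 82 and 1 of 8 members. Lef1, a naive T cell transcription factor, was higher in the Ccr7-detected cells by 1.55 (1.12 to 2.02), 1.90 (1.44 to 2.39) and 2.62 (1.36 to 4.1) in the first 3 libraries. The chromatin organizer Satb1 was higher by 1.49 (1.26 to 1.73), 2.13 (1.86 to 2.40) and 1.60 (1.06 to 2.13).

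The opposite side held Maf, a factor of effector and regulatory T cells, lower by -1.99 (-2.55 to -1.5), -1.62 (-1.94 to -1.32) and -1.14 (-2.49 to -0.14), and the adhesion receptor Cd44, lower by -2.12 (-3.15 to -1.28), -0.82 (-1.40 to -0.29) and -1.67 (-4.22 to -0.21). The factor Tox was also lower in all 3, by -1.62, -0.82 and -1.26. Cd5, a receptor that dampens T cell receptor signals, was lower by -1.44 (-2.11 to -0.83) and -1.26 (-1.75 to -0.81) on normal diet, while its western diet ratio was -0.41 (-1.55 to 0.51). Tcf7, which naive and memory-precursor cells share, did not follow Ccr7, with ratios of 0.11 (-0.38 to 0.59), 0.00 (-0.43 to 0.42) and 0.17 (-0.53 to 0.81).

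The master genes of the helper lineages were sparse. The Th1 factor Tbx21 gave 2, 15, 1 and 1 UMIs, and its target cytokine Ifng 5, 22, 7 and 0 UMIs in 3, 16, 6 and 0 cells. The Th17 cytokine Il17a gave 0, 4, 3 and 0 UMIs, while the factor Rora stood at 426, 577, 955 and 101 CPM, with 215, 192, 160 and 172 CPM in smooth muscle barcodes. The Th2 factor Gata3, also used by regulatory T cells, stood at 157 (125 to 194), 115 (94.6 to 139) and 54.2 (28.9 to 92.7) CPM in the first 3 libraries, while Il4 gave 1, 0, 0 and 0 UMIs and the 4 Il13 UMIs of WT came from 1 cell. Of the follicular helper genes, the checkpoint receptor Pdcd1 stood at 109 (83.4 to 141), 147 (123 to 173) and 25.0 (9.18 to 54.5) CPM, against 0, 1.06 and 0 CPM in B cells. Il21 gave 0, 0, 1 and 0 UMIs.

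Variable segments of the receptor were rarely caught by the 3' chemistry. A Trbv segment was seen in 15, 24, 11 and 0 members, spread over 9, 14, 8 and 0 segments, and the most frequent, Trbv2, in 4, 4 and 3 cells. Trav segments were seen in 10, 28, 7 and 0 members over 8, 23, 7 and 0 segments, with at most 3 cells for any of them. No segment was carried by more than 4 members of a library, out of the few cells with one.

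The first comparison between groups, LysM-DKO over WT on normal diet, compares the genotypes without the western diet. In LysM-DKO the CD4 T cells had lower naive genes, higher memory and effector genes and more signal of a few cycling cells. Over the 7136 genes with at least 20 UMIs in the 2 libraries together, the median log2 ratio was 0.04, 53.95% had ratios above 0, and 5.52% of the genes were at least 2 fold higher and 2.14% at least 2 fold lower in LysM-DKO. A call past 2 fold is a description of size, not a test.

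In the naive and recirculating list, 9 of 12 measured genes were lower in LysM-DKO and 3 higher, with a median log2 ratio of -0.54 (-0.85 to -0.15), and 3 were lower by 2 fold or more. Ccr7 gave 205 UMIs in WT and 176 in LysM-DKO, or 374 (324 to 428) and 186 (159 to 216) CPM, a ratio of -1.01 (-1.30 to -0.71). It was seen in 49.6 and 32.6% of the members, and in 16.4 and 8.38% after thinning to 500 UMIs, against 62.8 and 57.7% of B cells. Lef1 stood at 403 (351 to 459) and 185 (159 to 214) CPM, a ratio of -1.12 (-1.42 to -0.83), and it was among the 10 genes named for the lower side of this comparison. The TEC family kinase Txk was lower by -1.05 (-1.5 to -0.61), the quiescence factor Klf2 by -0.72 (-1.03 to -0.42), Foxp1 by -0.62 (-0.85 to -0.38) and Bach2 by -0.47 (-0.78 to -0.15). The egress receptor S1pr1 at 0.07 (-0.23 to 0.38) and the IL-7 receptor chain Il7r at 0.02 (-0.24 to 0.29) did not differ beyond counting error. All other kept barcodes held 42.6 CPM of Lef1 in WT and 18.7 CPM in LysM-DKO, so Lef1 was lower there too.

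Satb1 stood at 1396 (1299 to 1498) CPM in WT and 600.0 (552 to 652) CPM in LysM-DKO, a ratio of -1.22 (-1.38 to -1.06), and it was seen in 82 of 127 and 85 of 224 members. In B cells Satb1 stood at 825 and 414 CPM, and in CD8 T cells at 1918 and 1444 CPM, so it was lower in LysM-DKO there too. Ccr9, the homing receptor of recent thymic emigrants and gut-bound cells, ran the other way, at 18.2 (8.74 to 33.5) and 66.5 (51.1 to 85.1) CPM. It was seen in 3 and 18 cells, a ratio of 1.81 (0.90 to 3.0) that rests on 10 UMIs in WT. Without the Ccr9 UMIs of the top cell of each library the ratio was 3.46. That value has no interval and rests on even fewer WT UMIs. The 18 Ccr9-detected cells of LysM-DKO had higher Sox4, by 3.39 (2.68 to 4.06), Lef1, by 1.90 (1.30 to 2.43), and Satb1, by 1.68 (1.34 to 1.99), than the other members. The thymic maturation list had 5 higher and 2 lower of 7 measured genes, with a median of 0.36 (0.06 to 0.68).

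Of the 16 memory and effector genes, 14 were higher in LysM-DKO and 2 lower, with a median of 0.55 (0.29 to 0.86). Marker lists of other cells moved with this comparison. The B cell list (3 measured genes), red cell list (4), dendritic list (3) and fibroblast list (5) had medians of 1.23, 1.30, 1.01 and 0.33 with all their measured genes higher, and the smooth muscle list (6) had 0.10 (-0.17 to 0.40). Their part in the gene differences was not tested. S100a4, a calcium-binding protein of memory T cells, gave 62 UMIs in WT and 264 in LysM-DKO, or 113 (86.6 to 145) and 279 (246 to 315) CPM, a ratio of 1.29 (0.90 to 1.73). All other kept barcodes held 240 and 268 CPM of S100a4, above the members in WT and near them in LysM-DKO. Smooth muscle barcodes also express S100a4, at 260 and 298 CPM, while B cells stood at 70.4 and 78.3 CPM and Acta2 in the members at 3398 and 3236 CPM. S100a10 was higher by 0.99 (0.66 to 1.34), S100a11 by 0.92 (0.61 to 1.26), Maf by 0.90 (0.68 to 1.14), Lgals1 by 0.85 (0.55 to 1.18) and the transcriptional regulator Id2 by 0.53 (0.29 to 0.77).

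Ccl5 gave 22 and 210 UMIs, or 40.1 (25.1 to 60.7) and 222 (193 to 254) CPM, a ratio of 2.44 (1.83 to 3.17), and 75 of the 210 UMIs came from 1 cell. It was seen in 10 of 127 and 21 of 224 members, shares of 7.87% (3.84 to 14.0) and 9.38% (5.90 to 14.0), so the higher level lay more in the UMIs per positive cell than in the number of such cells. The exceptions were the tissue-residency chemokine receptor Cxcr6, lower by -1.97 (-2.94 to -1.11), and the monocyte-type chemokine receptor Ccr2, lower by -1.04 (-1.98 to -0.13). Of the 37 Cxcr6 UMIs in WT, 14 came from 1 cell, and without the Cxcr6 UMIs of the top cell of each library the ratio was -1.59.

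In the regulatory T cell list 12 of 15 measured genes were higher and 3 lower, with a median of 0.49 (-0.27 to 1.33). The intervals of 7 genes lay above 0 and of 3 below, and 1 was 2 fold higher and 2 were 2 fold lower. Of all 7136 genes, 5.52% were at least 2 fold higher and 2.14% at least 2 fold lower. The share of all genes with intervals off 0 was not counted, so the interval counts have no background. Icos stood at 295 (252 to 344) and 509 (465 to 557) CPM, a ratio of 0.78 (0.53 to 1.05), Tnfrsf9 at 0.72 (0.31 to 1.16), Tnfrsf4 at 0.63 (0.21 to 1.08) and Ikzf2 at 0.34 (0.18 to 0.50). Foxp3 had a ratio of 0.19 (-0.73 to 1.21). The anti-inflammatory cytokine Il10 gave 4 and 24 UMIs, a ratio of 1.66 (0.26 to 3.79). Il2ra gave 20 and 6 UMIs, a ratio of -2.44 (-4.13 to -1.16), with 10 of the 20 WT UMIs in 1 cell. Areg gave 89 and 64 UMIs, a ratio of -1.26 (-1.75 to -0.78), but 41 of the 89 came from 1 WT cell. The ratio without the Areg UMIs of the top cells was -0.57.

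Cell cycle genes rested on few cells. The proliferation marker Mki67 gave 7 UMIs in 3 WT cells and 81 UMIs in 13 LysM-DKO cells, of which 30 were in 1 cell, a ratio of 2.65 (1.64 to 4.11). The share with a Mki67 UMI was 2.36% (0.490 to 6.75) and 5.80% (3.13 to 9.72), intervals that overlap, against 1.22 and 4.24% in B cells. Top2a, the topoisomerase of dividing cells, was higher by 1.82 (1.14 to 2.63) with 59 of 118 UMIs in 1 cell, and the linker histone gene Hist1h1b by 3.38 (2.12 to 5.45) with 47 of 80 UMIs in 1 cell. Of the 8 measured genes of the list 7 were higher, with a median of 0.72 (-0.11 to 2.79).

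Other genes named for the higher side were Spp1, Xkr6, Runx3, Ahr, Hist1h2ap and Hist1h1e. Runx3, a transcription factor of effector T cells, gave 43 and 199 UMIs in 26 and 92 cells, a ratio of 1.41 (0.94 to 1.94). Ahr, the aryl hydrocarbon receptor, gave 8 and 55 UMIs in 5 and 29 cells, a ratio of 1.92 (0.92 to 3.28). Xkr6 gave 6 and 54 UMIs in 5 and 41 cells, with at most 3 UMIs in any cell, a ratio of 2.28 (1.17 to 3.89). Spp1 (osteopontin) gave 14 and 146 UMIs in 9 and 16 cells, with 44 in 1 cell, a ratio of 2.55 (1.80 to 3.50). The members held 25.5 and 154 CPM of Spp1, and all other kept barcodes 59.7 and 50.3 CPM. In WT the members were thus below the other barcodes, and Spp1 met the condition for naming through LysM-DKO only.

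The first 2 genes named for the lower side, by the interval bound nearest 0 among genes of at least 50 UMIs, were neighbours on chromosome 1. Eprs, which encodes the glutamyl-prolyl-tRNA synthetase (ENSMUSG00000026615, GRCm38, chromosome 1, 185363044 to 185428360, plus strand), gave 664 UMIs in WT and 152 in LysM-DKO, or 1210 (1120 to 1306) and 161 (136 to 188) CPM. Its ratio was -2.91 (-3.18 to -2.66). Bpnt1, a nucleotidase gene (ENSMUSG00000026617, chromosome 1, 185332149 to 185357777, plus strand), gave 38 and 12 UMIs, a ratio of -2.41 (-3.52 to -1.48). Lymphocytes other than CD4 T cells also held less of it in LysM-DKO, as Eprs stood at 442 and 142 CPM in CD8 T cells, 726 and 160 CPM in T cells with neither coreceptor and 309 and 190 CPM in B cells, but at 133 and 120 CPM in smooth muscle barcodes. WT/ApoE-/- members on western diet held 642 (545 to 752) CPM of Eprs, and the 8 cells of LysM-DKO/ApoE-/- held 2 UMIs. Utp14b, Ttn, Ms4a4b and Grap2, also named on the lower side, had ratios of -1.80, -1.32, -1.21 and -1.14.

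In the activation list 9 of 13 genes were lower in LysM-DKO and 4 higher, with a median of -0.29 (-0.55 to -0.03). Of these genes 3 had intervals below 0 and 1 above, again without a count over all genes. In the dissociation stress list, 16 immediate early and heat shock genes that enzyme digestion can induce, 7 were higher and 9 lower with a median of -0.08 (-0.40 to 0.28). The T cell receptor signalling list had 11 higher and 6 lower of 17 genes and a median of 0.16 (-0.33 to 0.68).

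**Figure D3:**
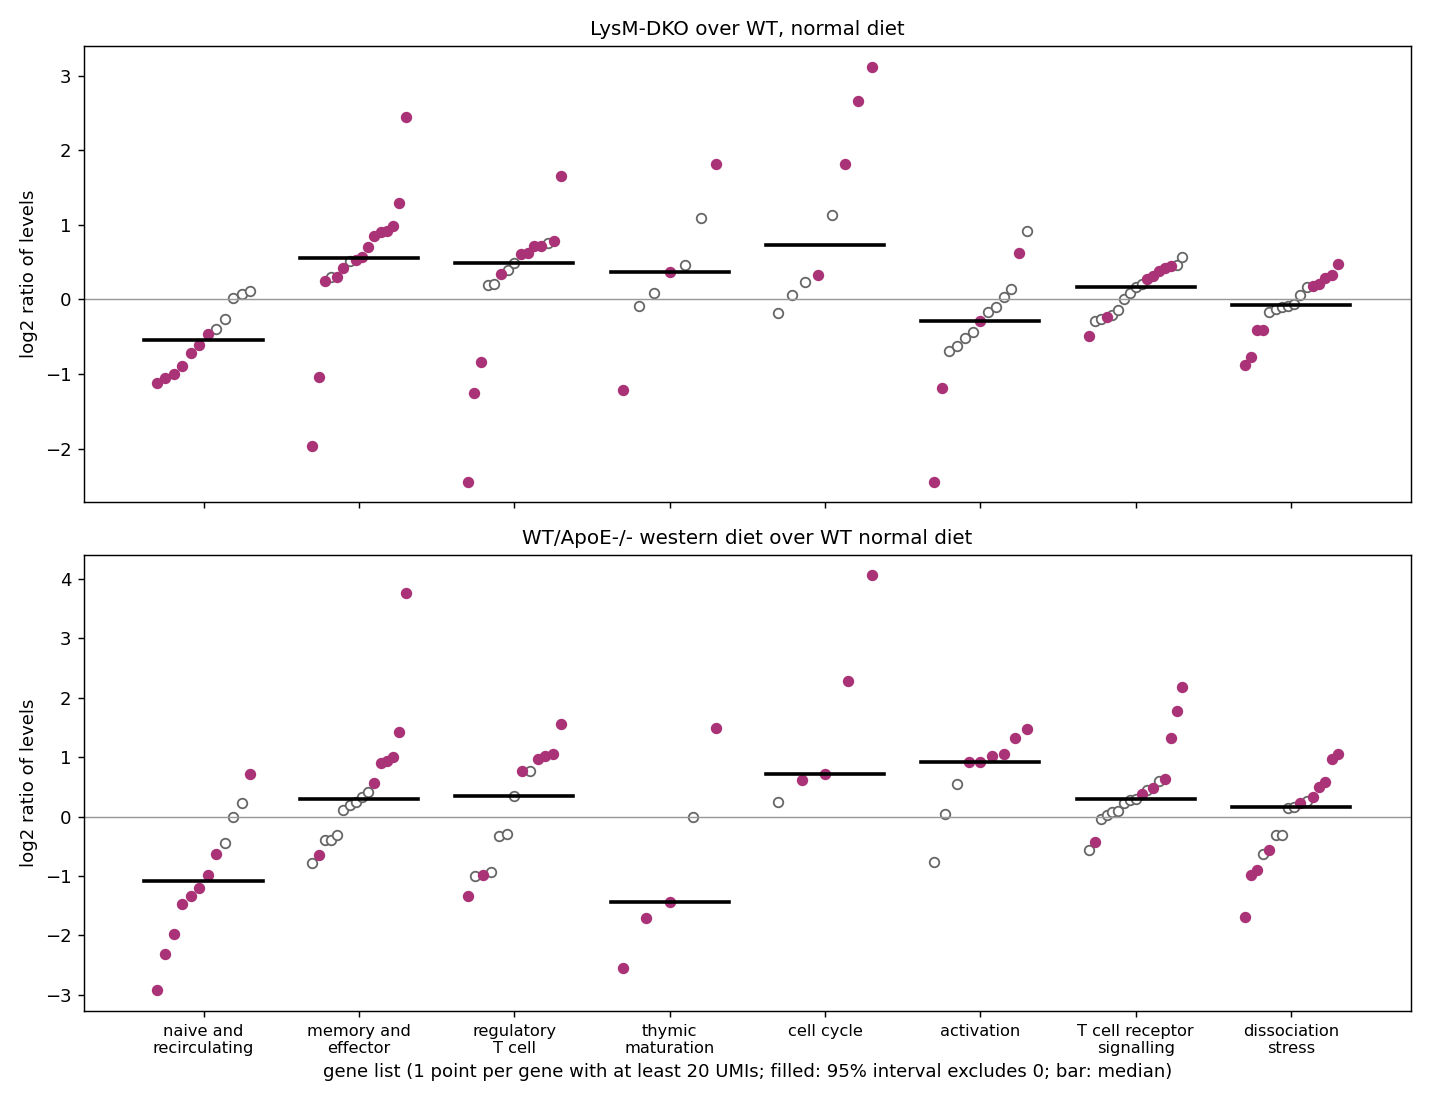
Log2 ratios of genes in 8 lists, LysM-DKO over WT on normal diet (top) and WT/ApoE-/- western diet over WT normal diet (bottom). Each point is a gene with at least 20 UMIs, filled where its 95% interval excludes 0, and the bars mark list medians of -0.54 and -1.09 for the naive list, 0.55 and 0.29 for the memory and effector list, and 0.36 and -1.44 for the thymic maturation list. The share of all genes that would be filled was not counted.

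The second comparison set WT/ApoE-/- on western diet against WT on normal diet, with the confounders named above. Here naive genes were lower and activation genes higher in the western diet library. Of 5166 genes with at least 20 UMIs, 7.99% were at least 2 fold higher and 7.32% at least 2 fold lower, and the median log2 ratio was 0.07. The comparison rests on 82 cells against 127, and 54.57% of these genes had ratios above 0. Markers of other cells moved with it. The medians were -2.54 for the red cell list (4 of 4 measured genes at least 2 fold lower), -1.40 for the B cell list (3 genes), 0.71 (0.23 to 1.17) for the fibroblast list (5 genes) and 0.36 (0.05 to 0.65) for the smooth muscle list (6 genes). Their part in the gene differences was not tested.

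In the naive list 10 of 12 measured genes were lower and 2 higher, with a median of -1.09 (-1.66 to -0.49), and 6 were lower by 2 fold or more. Ccr7 gave 32 UMIs in 9 cells, or 134 (91.3 to 189) CPM against 374 CPM in WT on normal diet, a ratio of -1.47 (-2.07 to -0.94), and 18 of the 32 UMIs were in 1 cell. Without the Ccr7 UMIs of the top cell of each library the Ccr7 ratio was -2.55. Lef1 was lower by -1.98 (-2.68 to -1.40), Bach2, a repressor of effector genes, by -2.31 (-3.30 to -1.54), Txk by -2.92 (-4.71 to -1.78) and S1pr1 by -1.34 (-2.06 to -0.74). Tcf7 was higher, at 434 (355 to 526) against 266 (225 to 313) CPM, a ratio of 0.71 (0.33 to 1.08). A Ccr7 UMI was seen in 11% of the members (2.84% after thinning to 500 UMIs), against 38.6% of the B cells of this library.

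Of 5 measured thymic maturation genes 4 had ratios below 0, among them Tox at -0.02 (-0.51 to 0.44), and the list median of -1.44 (-1.73 to -1.17) is the value of Satb1. With at least 50 UMIs per gene the list median was -0.0162, and with no filter -0.39. Satb1 stood at 513 (426 to 612) against 1396 CPM, a ratio of -1.44 (-1.73 to -1.17), and at 870 against 825 CPM in B cells. All other kept barcodes together held 55.1 against 311 CPM of Satb1. Ccr9 gave 0 UMIs in 82 cells, which allows up to 12.5 CPM. Themis, a regulator of receptor signals during selection, was higher by 1.49 (0.81 to 2.18).

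The effector list was mixed, with 11 of 16 genes higher, 5 lower and a median of 0.29 (-0.37 to 0.82). Ccl5 was the largest, at 551 (461 to 653) against 40.1 CPM, a ratio of 3.75 (3.12 to 4.50), in 16 of 82 members or 19.5% (11.6 to 29.7). In the same libraries CD8 T cells stood at 2623 and 1448 CPM of Ccl5. S100a4 was higher by 1.43 (0.92 to 1.94), S100a10 by 1.0 (0.56 to 1.44), Ahnak by 0.94 (0.62 to 1.25) and Vim by 0.90 (0.71 to 1.09), while Crip1 was lower by -0.65 (-1.21 to -0.15). Smooth muscle barcodes of these libraries held 1160 and 1067 CPM of Ahnak and 286 and 260 CPM of S100a4.

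In the activation list 8 of 9 measured genes were higher, 4 of them by 2 fold or more, with a median of 0.91 (0.65 to 1.18). Nr4a3, an immediate response gene of the T cell receptor, stood at 893 (777 to 1021) against 474 (418 to 535) CPM, a ratio of 0.91 (0.65 to 1.18). The NF-kappa-B subunit Rel was higher by 0.91 (0.61 to 1.21), the phosphatase Dusp2 by 1.32 (0.59 to 2.06) and Tnfrsf4 by 1.02 (0.47 to 1.57), while Nr4a1 had a ratio of 0.05 (-0.46 to 0.52). Among the stress genes 9 were higher and 7 lower, with a median of 0.15 (-0.23 to 0.49). Junb was higher by 1.06 (0.90 to 1.21) and Egr1 lower by -0.99 (-1.27 to -0.72).

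Among the T cell receptor signalling genes, 14 of 17 were higher, with a median of 0.29 (-0.10 to 0.66). The adaptors Lcp2 (SLP-76) and Lat were higher by 1.77 (1.08 to 2.50) and 1.33 (0.76 to 1.90), and the surface glycoprotein Thy1 by 2.18 (1.52 to 2.90), with 56 UMIs in 29 cells against 28 in 20. In the regulatory T cell list 7 of 13 measured genes were higher, a share near that of all genes. The folate receptor family gene Izumo1r was higher by 1.56 (0.89 to 2.26) and Ctla4 by 0.76 (0.31 to 1.20), while Ikzf2 was lower by -0.99 (-1.32 to -0.68) and Foxp3 had a ratio of -0.30 (-2.20 to 1.14).

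Further genes named for the higher side were Tnfsf11, Ostf1, Dusp4, Dut, Bcl2a1b and Rac2. Tnfsf11, the cytokine RANKL, gave 46 UMIs in 13 cells against 22 in 11, a ratio of 2.24 (1.5 to 3.06), and Rac2, a small GTPase of blood cells, had a ratio of 1.54 (1.17 to 1.93). Mki67 gave 54 UMIs in 12 cells against 7 in 3, a ratio of 4.06 (3.0 to 5.52), with 35 of the 54 in 1 cell. The share with a Mki67 UMI was 14.6% (7.80 to 24.2) against 2.36% (0.490 to 6.75), and 4.08 against 0.213% after thinning to 500 UMIs, while B cells had 3.22 and 1.22%. Named on the lower side were also Gm12840, Odc1, Tmem64, Cenpa, Bcl6 and Samhd1. Bcl6, the follicular helper repressor, gave 8 UMIs against 81, a ratio of -2.07 (-3.40 to -1.10), and Odc1, the first enzyme of polyamine synthesis, stood at 426 against 1283 CPM, a ratio of -1.59 (-1.91 to -1.29). All other kept barcodes held 30.5 against 56.5 CPM of Bcl6 and 85.5 against 243 CPM of Odc1, so both were lower there too.

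Both comparisons share the WT normal diet library, so genes that moved alike in both are not independent evidence. Side by side, the ratios of LysM-DKO and of WT/ApoE-/- over that library were -1.01 and -1.47 for Ccr7, -1.12 and -1.98 for Lef1, -1.22 and -1.44 for Satb1, 1.29 and 1.43 for S100a4 and 2.44 and 3.75 for Ccl5. They had opposite signs for Ikzf2 (0.34 and -0.99). For Maf they were 0.90 and -0.40, but the interval of the western diet ratio reached 0.

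**Figure D4:**
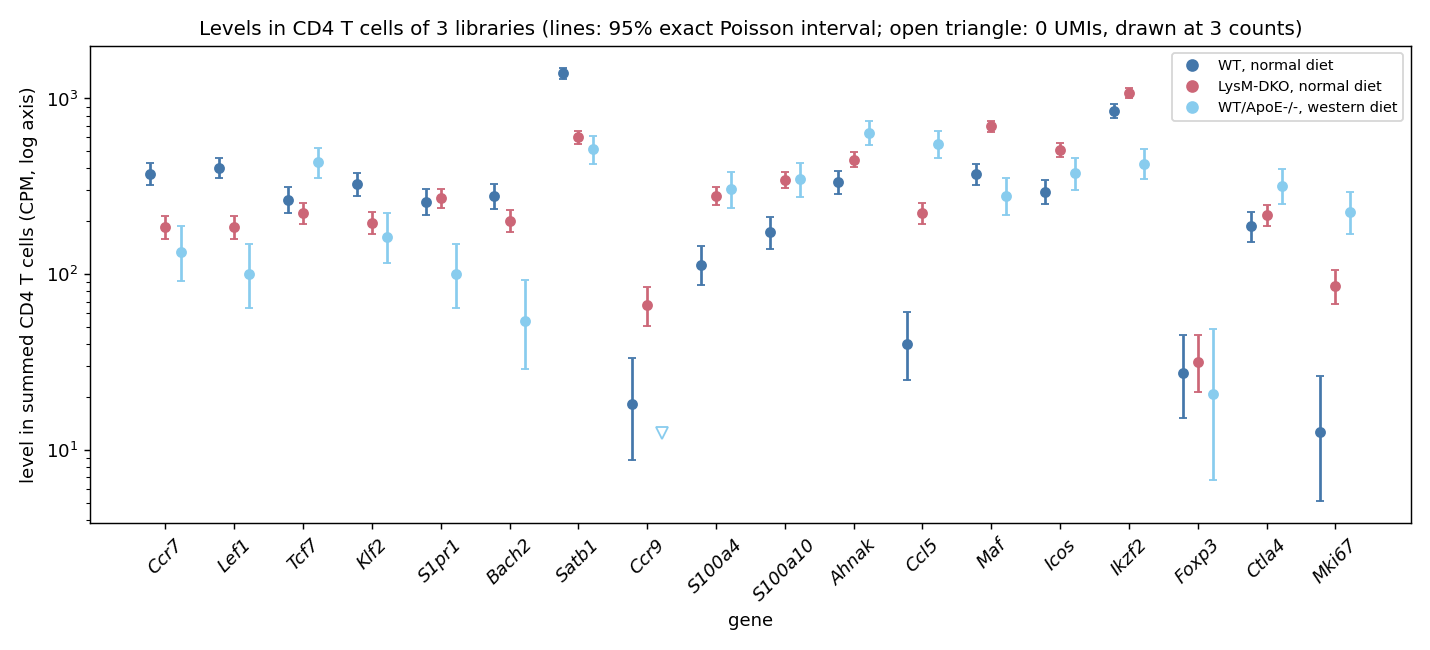
Level of 18 genes in the summed CD4 T cells of 3 libraries (CPM, log axis) with exact Poisson 95% intervals for counting error. Ccr7, Lef1 and Satb1 are highest in WT on normal diet, S100a4 and Ccl5 are lowest there, Foxp3 intervals overlap in all 3, and the open triangle marks Ccr9 at 0 UMIs.

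The 8 CD4 T cells of LysM-DKO/ApoE-/- on western diet held 1532 to 9700 UMIs each. The deepest of them held 90 of the 99 Hspb1 UMIs and 72 of the 94 Cst3 UMIs. Icos was seen in 5 of 8 cells, Tcf7 in 4, Lef1 in 3, Ccr7 in 1 and Satb1 in 6, and Foxp3, Ctla4, Mki67 and Ccr9 in none, which allows up to 101 CPM each. Acta2 stood at 8382 (7374 to 9491) CPM, the highest of the 4 libraries, against 4397 (4135 to 4671) in WT/ApoE-/-. No list or gene ratio is given for this library.

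The genes of the study's title gave small counts in the members. Epn1 stood at 41.9 (26.6 to 62.9), 52.8 (39.2 to 69.6), 41.7 (20 to 76.7) and 33.7 (0.852 to 188) CPM, overlapping in all libraries. Epn2 gave 6 and 43 UMIs on normal diet, or 10.9 (4.01 to 23.8) and 45.4 (32.9 to 61.2) CPM, and 29.2 (11.7 to 60.2) CPM in WT/ApoE-/-. A 3' count can still see the transcript beyond a deleted exon, so these values do not check the knockout, and smooth muscle barcodes held 110, 121, 122 and 91.3 CPM of Epn2. The cholesterol exporter gene Abcg1 stood at 18.2 (8.74 to 33.5), 31.7 (21.4 to 45.2) and 54.2 (28.9 to 92.7) CPM in the first 3 libraries. In the cholesterol list, 8 of 11 measured genes were higher in LysM-DKO on normal diet with a median of 0.15 (-0.72 to 1.11), and 4 of 9 were higher on western diet in WT with a median of -0.07 (-1.16 to 0.87). The synthesis gene Hmgcs1 stood at 23.7, 45.4 and 87.6 CPM in the first 3 libraries.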

How the data were processed

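Single-cell RNA of mouse aorta was measured in 4 libraries, 1 per group. The values used are the raw UMI counts that the authors deposited for every gene in every barcode. Cell Ranger 6.0.1 (normal diet) and 6.1.2 (western diet) produced them, per the file headers, and the submitters' processing notes name Cell Ranger 6.1.2, Seurat 4.1.0 and mm10. Cell calling parameters are not given in the sources used here. The libraries held 13831, 15826, 29724 and 11414 barcodes and 51281643, 50662515, 67450979 and 62510744 UMIs, and 9039, 9636, 26156 and 9035 barcodes were kept.

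The members and the 30 gene lists were chosen with earlier results of these data known. UMIs were summed over the members of a library and given as CPM with exact Poisson intervals. Ratios are log2 with 0.5 UMI added, with exact binomial intervals given their total. Shares have exact Clopper-Pearson intervals and their differences Newcombe intervals. A list is given by its median over genes with at least 20 UMIs in both libraries together, with the interval of the gene or genes at the median. PCR duplicates are collapsed by UMI, and intervals cover counting error only. CD8 T cells met the same rule with no Cd4 and at least 1 Cd8a or Cd8b1 UMI. Smooth muscle barcodes had Myh11, at least 2% of UMIs from Acta2 and Tagln, and no T cell, Ptprc or C1q UMI. Thinned shares are the expected share if each cell is cut to a fixed number of UMIs. Ratios without the top cell leave out the UMIs of the gene in the cell that holds most of them. The other UMIs of that cell stay in the library total.

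Named genes were the list genes and, per comparison and direction, the 10 whose interval bound nearest 0 was largest in size, among genes of at least 50 UMIs whose level in the higher library was no lower than in its other barcodes. For CD4 over CD8 and Foxp3-detected over other members, they were the 10 with the largest smaller ratio over both normal diet libraries, with the same sign and at least 20 UMIs in each. Mitochondrial, ribosomal, hemoglobin, immunoglobulin, receptor segment and sex-linked genes and those of the rule were left out. The planned ratios that involve the 8 cells of LysM-DKO/ApoE-/- are not given. Doublets were scored with scrublet in scanpy 1.11.5. Its automatic threshold marked 1, 0, 1 and 1 barcodes, so it did not work here, and doublets were kept. An alternative left out the highest scores, at 0.8% per 1000 scored barcodes, which marked 12, 15, 8 and 2 members. The ratio and thinning code was tested on simulated data. Gene positions come from GENCODE M21 (GRCm38), joined by gene ID for 99.6% of 32285 features. Tables were computed with pandas 2.3.3, scipy 1.17.1 and numpy 2.4.6 under python 3.11.15, and drawn with matplotlib 3.10.9.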

Additional observations from a re-analysis of the deposited data

Results flagged for a closer look

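The share of CD4 T cells among kept barcodes differed between the genotypes in opposite directions on the 2 diets. It was higher in LysM-DKO than in WT under the normal diet, by 0.920 points of percent (0.533 to 1.31), and lower under the western diet, at -0.225 (-0.312 to -0.120). With 1 library in each group the difference between the diets was not tested, and the western diet value rests on 82 and 8 cells.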

How the results depend on the processing

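No test was run between groups, no library could be left out with 1 per group, and no called value reversed under any alternative run. No paired analysis was possible because each group is 1 library and the result comes from no test. The CD4 share of CD4 plus CD8 T cells stayed within its interval under the 5 alternatives run for it. At least 2 Cd4 UMIs was run for the share of kept barcodes only, and not for this share, the Foxp3-detected share, list medians or gene ratios. That setting left 44, 108, 28 and 2 members beside an unchanged 229, 94, 75 and 4 CD8 T cells. The CD4 share of CD4 plus CD8 T cells would therefore be lower in each library there. Of 24 alternative values of the share of kept barcodes 8 left the interval. These were 2.72% in LysM-DKO on normal diet and 0.568% in WT/ApoE-/- at a minimum of 1000 UMIs, 1.04% and 1.71% on normal diet at up to 20% mitochondrial UMIs, and 0.487, 1.12, 0.107 and 0.0221% with at least 2 Cd4 UMIs. The Foxp3-detected share on normal diet was 1.69% and 1.30% with cells thinned to 500 UMIs and 3.10% and 2.43% at 1000, as fewer UMIs are read per cell.

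Counts of genes past 2 fold follow the minimum of UMIs per gene. For LysM-DKO over WT they were 394 higher and 153 lower at 20 UMIs, 720 and 349 at 10, 109 and 39 at 50, and 2060 and 1795 with no filter. For western over normal diet in WT they were 413 and 378, then 848 and 676, 125 and 153, and 3042 and 1930. Of 176 alternative list medians 6 left their interval, all in western over normal diet in WT. The regulatory T cell list was 0.76 at 50 UMIs and 0.76 with no filter, the thymic maturation list -0.0162 at 50, -0.39 with no filter and -1.80 without the top cell of each gene, and the cell cycle list 1.93 with no filter. Of 440 alternative values for the 40 ratios named by size 8 left their interval. The settings of 10 UMIs, 50 UMIs and no filter cannot change the ratio of a gene. Their 40 values each repeat the main ones and say nothing on stability. With equal weight for each cell Top2a was 0.70 in LysM-DKO over WT and 0.89 in western over normal diet, Hist1h1b 1.91, Dut 1.17 and Satb1 -2.05 (western over normal diet). Without the top cell of each gene Areg was -0.57 in LysM-DKO over WT, and Top2a 1.30 and Satb1 -1.80 in western over normal diet. Of the list genes described, Ccr9 was then 3.46 in LysM-DKO over WT, on fewer than 10 WT UMIs, and Ccr7 -2.55 in western over normal diet. For the comparisons with LysM-DKO/ApoE-/-, which holds 8 members, list medians and counts past 2 fold are not given and their alternatives were not run. The alternatives without the top cells and without members of at least 2% Acta2 and Tagln UMIs were chosen after seeing the data.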

Other observations

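Members with a Ccl5 UMI, 10, 21 and 16 cells in the first 3 libraries, did not differ from the other members beyond counting error in S100a4, with log2 ratios of 0.75 (-0.86 to 1.86), -0.27 (-1.04 to 0.35) and 0.41 (-0.62 to 1.25). Maf was higher in them on normal diet, by 1.06 (0.37 to 1.65) and 0.78 (0.45 to 1.09), and Tox was higher on western diet, by 2.42 (1.60 to 3.23). Satb1 was lower in them in each library, by -0.78 (-1.39 to -0.27), -1.95 (-2.88 to -1.24) and -1.60 (-3.18 to -0.54). Foxp3 was seen in 1, 3 and 0 of these cells.

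The 3, 13 and 12 members with a Mki67 UMI had median depths of 10481, 5666 and 3090.5 UMIs, against 3739, 3530 and 2133.5 in the others. Stmn1, a microtubule regulator of dividing cells that the split did not use, was higher in them by 2.83 (2.04 to 3.55), 2.37 (1.87 to 2.85) and 2.70 (1.83 to 3.70). Klf2 was lower in them, by -1.68 (-4.19 to -0.33), -1.06 (-2.15 to -0.25) and -3.29 (-9.20 to -1.30). Satb1 was lower on normal diet, by -2.52 (-3.82 to -1.62) and -1.87 (-2.63 to -1.26), and higher on western diet, by 0.89 (0.34 to 1.43). Of the 54 Mki67 UMIs in the western diet library 35 were in 1 cell.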
